A study of Mus musculus with 12 samples.

Results

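Atf4 is a bZIP transcription factor of the integrated stress response, and this account follows the mRNA of Atf4, of partner factors and of genes known as its targets, 36 genes in all. They were chosen by name, by a rule that uses no threshold on measured values but set with earlier results of these data known, and comprised 18 cytosolic aminoacyl-tRNA synthetases, 6 bZIP factors, 4 stress effectors and other targets, 6 enzymes of amino acid synthesis and 2 mitochondrial folate enzymes. All 36 were among the 24421 gene symbols of the count tables, and all 36 passed the filter on low counts that left 11727 genes for testing. The samples were polyadenylated RNA of CD8+ T cells from the spleen of C57BL/6 mice, with 6 libraries of cells given DMSO, the solvent control, and 6 of cells given an inhibitor of EZH2, the histone methyltransferase of Polycomb repressive complex 2 (EZH2i). No label given here names the inhibitor, its dose, the length of exposure, the culture conditions or the age of the mice. The title of the series places the study in the setting of metabolic stress of T cells in tumours. Nothing in the labels tells whether libraries of 1 group are separate mice or separate cultures; p-values therefore reflect library-to-library spread, possibly technical in part.

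Cells that lack amino acids, haem or folding capacity in the endoplasmic reticulum, or that sense double-stranded RNA, phosphorylate the initiation factor eIF2 on its alpha subunit. General translation then falls, while the Atf4 open reading frame is translated more, because short upstream reading frames no longer block it. Atf4 protein dimerises with C/EBP family factors on composite C/EBP-ATF response elements and raises genes for amino acid synthesis, amino acid uptake and tRNA charging. Activated T cells use the same genes when they grow. Since much of the control of Atf4 acts on translation, its mRNA level is not a reading of its protein.

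A composite element can be looked for as its core letters, TGATGNAA, where N is any base. Both strands of the RefSeq promoter windows (GRCm38.p6, 250 bases before to 50 bases after an annotated start) were searched, and 29 of the 36 genes had a window. The core occurred in 11 of these 29 genes (37.9%), against 3.97% of all 32851 windows. Because some genes have several windows, the share of all 27025 genes with at least 1 match was 4.51%. The palindromic cAMP response element TGACGTCA, which shares no full match with the core, occurred in 0 of the 29 genes, beside 1.79% of all windows and 2.03% of all genes. With shares this low, 0 of 29 genes cannot be told apart from the background. The matches show the letters that members of every role except the folate enzymes carry near their starts. Sites of 10 of the 11 genes are printed. Each line gives 30 bases on the strand of the gene, 5′ to 3′, with the match in capitals (capitals that end in CATCA are the same core read on the other strand).
Atf3 (chr1:191183425-191183454, minus strand): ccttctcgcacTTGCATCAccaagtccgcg
Chac1 (chr2:119351038-119351067, plus strand): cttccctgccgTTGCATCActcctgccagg
Trib3 (chr2:152344028-152344057, minus strand): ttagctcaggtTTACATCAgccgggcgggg
Vldlr (chr19:27216809-27216838, plus strand): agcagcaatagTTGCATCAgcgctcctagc
Asns (chr6:7693214-7693243, minus strand): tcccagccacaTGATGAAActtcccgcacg
Pycr1 (chr11:120643833-120643862, minus strand): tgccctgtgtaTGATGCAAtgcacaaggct
Gars (chr6:55037960-55037989, plus strand): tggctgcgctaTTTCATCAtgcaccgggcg
Iars (chr13:49682126-49682155, plus strand): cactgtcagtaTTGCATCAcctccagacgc
Tars (chr15:11399655-11399684, minus strand): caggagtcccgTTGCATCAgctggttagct
Yars (chr4:129189895-129189924, plus strand): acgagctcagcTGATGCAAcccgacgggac

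The matches stood at different distances from the starts. In Asns the core covered bases -23 to -16 relative to the RefSeq start, in Tars bases -15 to -8, in Gars bases -30 to -23 and in Atf3 bases -110 to -103, while in Vldlr it covered bases -200 to -193 and in Trib3 bases 15 to 22 after the start. On the group alone Atf3 was the 1 gene with a match whose mRNA rose in EZH2i libraries, and Vldlr and Asns joined it in a fit with a term for each replicate number (values below), and a longer stretch of the Atf3 upstream region is given, from base -250 to base -11, with the same match in capitals.
Atf3 upstream region (chr1:191183344-191183583, minus strand): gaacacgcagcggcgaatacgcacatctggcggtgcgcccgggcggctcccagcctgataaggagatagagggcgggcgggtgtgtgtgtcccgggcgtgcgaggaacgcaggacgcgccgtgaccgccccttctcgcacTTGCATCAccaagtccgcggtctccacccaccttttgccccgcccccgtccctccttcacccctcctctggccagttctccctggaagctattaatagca
A match describes letters and not binding, which was not measured here. Ddit4 and Cebpb, which rose as well, had no match in their windows. The 11 genes with a match included 1 that rose and 0 that fell, with a median log2 fold change of 0.02, and the 18 with a window and no match included 2 that rose and 0 that fell, with a median of -0.07. With a term for each replicate number the counts were 3 higher and 2 lower with a match, and 3 higher and 5 lower without.

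Of the 36 genes, 3 rose in EZH2i libraries, 0 fell and 33 did not pass the test at an adjusted p under 0.05. Among all tested genes 13.3% were called higher and 6.05% lower, 19.3% in either direction. The 3 that rose were Ddit4, Cebpb and Atf3. The median log2 fold change over the 36 genes was -0.06, beside -0.01 over all tested genes, and 14 of the 36 values were positive and 22 negative. At an unadjusted p under 0.05 there were 5 of the 36 genes and 3805 of all tested genes. The plot of fold changes by role shows that the genes with the largest positive values were bZIP factors and stress effectors, and that the synthetases lay between -0.31 and 0.11.

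**Figure D1:**
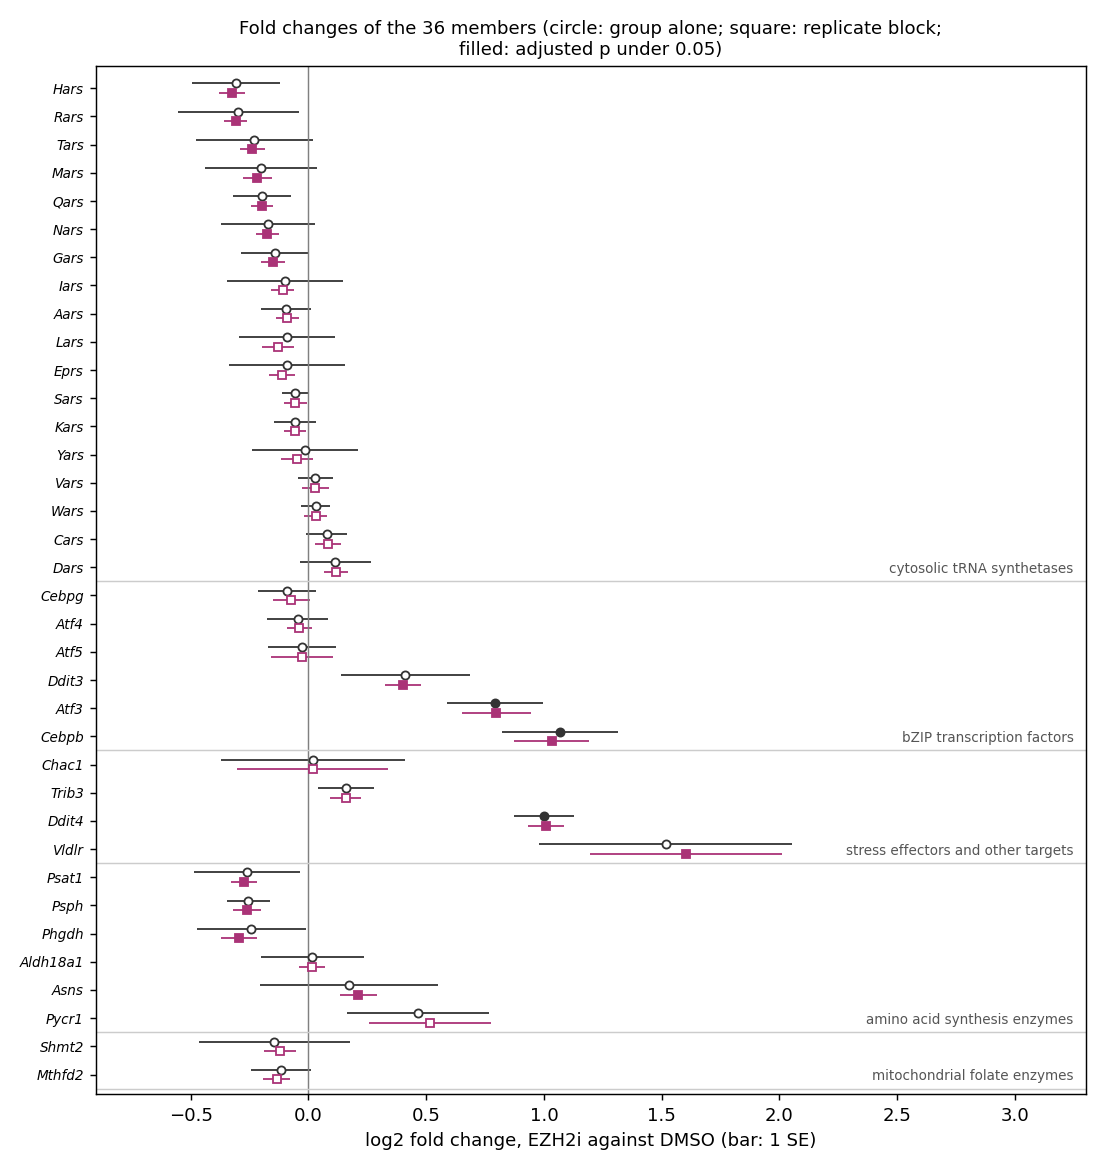
Log2 fold change (horizontal axis) of each of the 36 genes, grouped by role, with bars of 1 SE; circles are the fit on the group alone, squares the fit with a term for each replicate number (the block), and filled symbols have an adjusted p under 0.05. Ddit4, Cebpb and Atf3 are filled in both fits, and the blocked bars of most synthetases are shorter than the unblocked ones.

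The libraries that carry replicate number 6 stood apart from the rest in both groups, and this touches most of the values that follow. DMSO 6 had the smallest total of the series (17215483 counts) and EZH2i 6 the largest (31206228 counts). Number 6 was the highest library of its group in both groups for 26 of the 36 genes, among them 15 of the 18 synthetases, and the lowest in both for 2 (Qars and Ddit3), beside 28.5% and 31% of all tested genes. Same-numbered libraries deviated together from their group means (correlations across genes of 0.213 to 0.847), so a blocked fit, with a term for each replicate number, is given beside each of the 36 genes, and as counts for each list, where it changed a call. Without number 6 the correlations ran from 0.0371 to 0.341. Pairing by the other numbers is therefore uncertain, and the blocked calls and counts of pairs carry that limit. With the block, 49.0% of all tested genes were called, 24.7% higher and 24.3% lower. Of the 36 genes, 6 were then called higher (Atf3, Cebpb, Ddit4, Ddit3, Vldlr and Asns) and 10 lower (Gars, Hars, Mars, Nars, Qars, Rars, Tars, Psat1, Phgdh and Psph). Without both libraries numbered 6 and without the block, 44.8% of tested genes were called, 23.9% higher and 20.9% lower, with 6 of the 36 higher and 13 lower, and 15 of the 36 were called in the same direction in both of these fits. What a replicate number stands for, and what sets the libraries numbered 6 apart, was not tested.

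**Figure D2:**
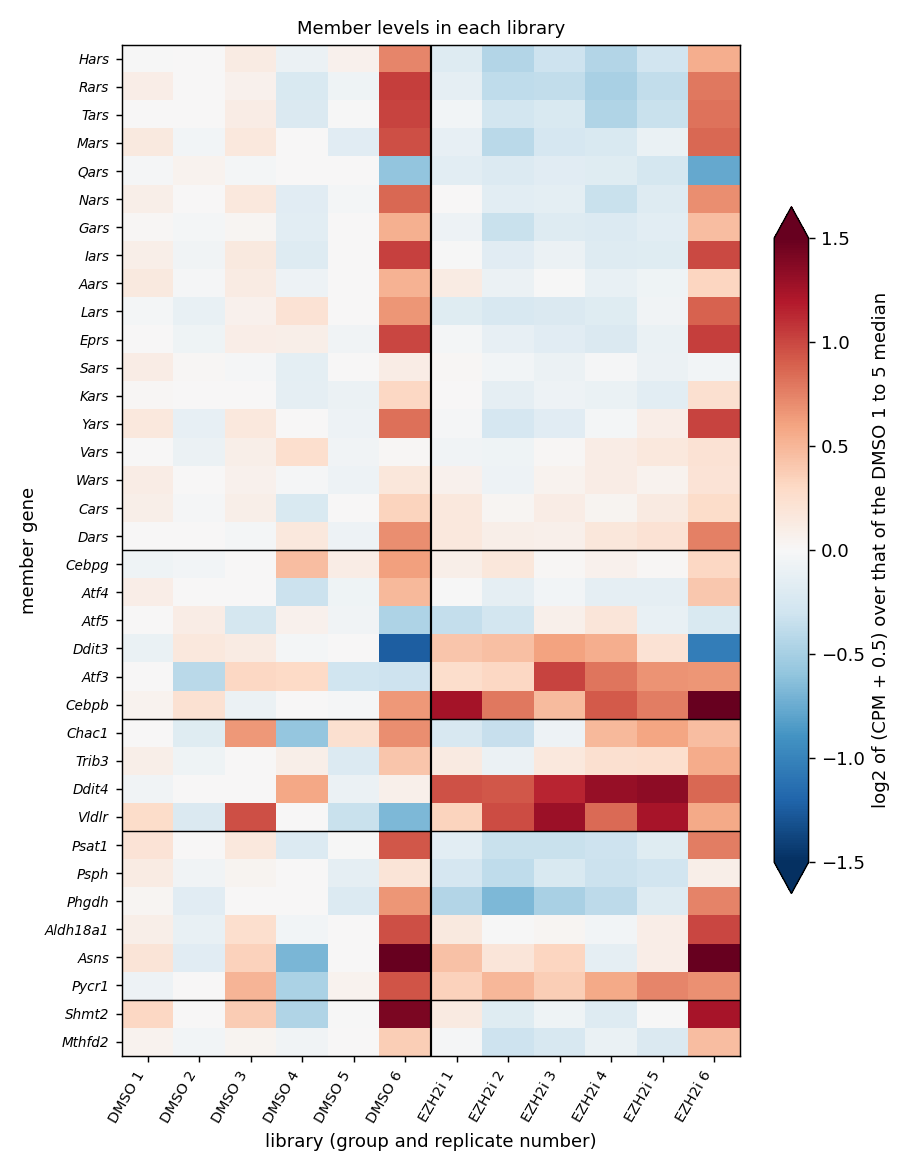
Level of each of the 36 genes (rows, by role) in each of the 12 libraries (columns), as log2 of CPM plus 0.5 over the median of DMSO libraries 1 to 5. The columns DMSO 6 and EZH2i 6 are red for most synthetases, Asns and Shmt2 and blue for Ddit3 and Qars, while the Ddit4 row is red in all 6 EZH2i libraries.

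The identity of the cells was checked against lists of markers. For comparison, 13.3% of all tested genes were called higher and 6.05% lower, and with the block 24.7% and 24.3%. Of 6 tested markers of CD8 T cells 0 rose and 3 fell on the group alone, with 4 lower in the blocked fit, and all 6 values were negative. Their summed levels were 3402 to 4573 CPM (counts per library total after TMM scaling) in DMSO and 2420 to 3697 in EZH2i. Library 6 was the lowest of each group, and without it the ranges were 3886 to 4573 and 3346 to 3697, without overlap. Cd8a had medians of 1094 and 895 CPM and fell by -0.30 (adjusted p = 0.00129), Cd2 fell by -0.60 (adjusted p = 0.00395) and Cd3g by -0.37 (adjusted p = 0.0488). Of 7 genes listed as markers of NK cells 4 were tested and 3 rose (Gzma, Klrb1c and Eomes), while Klra8 and Klra4 had 0 counts in all 12 libraries. The list summed to 419 to 607 CPM in DMSO and 499 to 992 in EZH2i, with library 6 the highest of each group. Without library 6 the sums were 419 to 564 and 499 to 573 CPM, which overlapped. Of the CD4 T cell list, Cd4 did not exceed 0.345 CPM, Foxp3 had medians of 6.17 and 8.06 CPM (adjusted p = 0.267, blocked 0.00999), and Zbtb7b rose from 14.9 to 23.4 (adjusted p = 0.00654), with list sums of 17.4 to 23.0 CPM in DMSO and 23.8 to 34.8 in EZH2i. Of 8 markers of B and plasma cells 6 were under 1 CPM in every library, Pax5 among them, while Cd79b ran from 14.5 to 25.2 CPM (adjusted p = 0.0845, blocked 0.00927, lower) and Cd22 had medians of 0.804 and 1.48 (adjusted p = 0.05, blocked 0.0113, higher); the list summed to 20.3 to 25.8 CPM in DMSO and 15.6 to 24 in EZH2i. Of 14 myeloid and dendritic markers 11 were under 1 CPM throughout and 1 rose, Itgam, from a median of 4.90 to 12.7 (adjusted p = 0.0112), with sums of 5.42 to 12.2 and 6.87 to 20.4 CPM. Without library 6, the lowest of each group, these sums were 10.2 to 12.2 and 16.7 to 20.4 CPM. Of 7 stromal and endothelial markers 1 rose, Pdgfrb, from 0.438 to 3.38 CPM (adjusted p = 0.000266), and the sums of 88.7 to 196 and 62.7 to 185 CPM were mostly Pecam1. Of 9 erythroid and platelet markers, 4 haemoglobin genes and Alas2 had no counts and 0 were called on the group alone, with sums of 0.476 to 2.70 and 1.39 to 3.67 CPM; Itga2b was higher in the blocked fit (adjusted p = 0.0027). Library 6 also gave the lowest sum of each group for the B cell, stromal and erythroid lists, where the ranges without it overlapped. Whether RNA of the listed genes came from such other cells or from the CD8 T cells themselves was not tested. The part of these markers in the results below was not tested. In bulk RNA a change in the share of cells that express a gene and a change in the amount of its RNA per cell cannot be told apart.

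Among the stress effectors, Ddit4 (also called Redd1), an inhibitor of mTORC1 signalling, had the clearest difference. Ddit4 (chr10:59949669-59951834, minus strand) ran from 88.7 to 142 CPM in DMSO, with a median of 94.8, and from 173 to 241 in EZH2i, with a median of 197. The highest DMSO library (DMSO 4, at 142) lay below the lowest EZH2i library (EZH2i 6, at 173), so the groups did not overlap. No other of the 36 genes had separate groups; over all tested genes 7.5% were separate with EZH2i higher and 2.74% with EZH2i lower. Ddit4 was higher in EZH2i in 6 of 6 same-numbered pairs, by a log2 fold change of 1.0 (SE 0.127, adjusted p = 0.000122), and its mean was 2.0-fold higher. Its adjusted p lay between 2.09e-05 and 0.000572 when any 1 library was left out.

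The other effectors did not pass the test on the group alone. Trib3, a pseudokinase that binds Atf4 and limits its activity, ran from 26.8 to 41.4 CPM in DMSO (median 31.8) and from 29.1 to 45.7 in EZH2i (median 35.6). The fold change on the log2 scale was 0.16 (SE 0.12, adjusted p = 0.399), with EZH2i higher in 5 of 6 pairs, and the blocked fit gave an adjusted p of 0.0585. With the block under upper-quartile scaling, an alternative scaling of the libraries, Trib3 rose by 0.22 (adjusted p = 0.0141). In that fit 30.0% of all tested genes were called higher. Both libraries numbered 6 were the highest of their groups for Trib3. Chac1, which degrades glutathione and is among the most responsive Atf4 targets, was near the limit of detection in both groups, with 109 counts over the 6 DMSO libraries and 139 over the 6 EZH2i libraries. It ran from 0.296 to 1.43 CPM in DMSO (median 0.80) and from 0.441 to 1.3 in EZH2i (median 0.887), for a log2 fold change of 0.02 (SE 0.392, adjusted p = 0.981). At this depth the SE spans more than the value, and a moderate change in either direction was not detectable.

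Vldlr, a lipoprotein receptor that Atf4 is known to raise under stress, was the lowest of the 36 genes in DMSO. It had 0 counts in DMSO 6, which allows up to 0.179 CPM (3 counts), a DMSO median of 0.24 and a highest DMSO value of 1.05. In EZH2i it ran from 0.506 to 1.43 CPM with a median of 1.0. The groups overlapped through 1 DMSO library, and EZH2i was higher in 6 of 6 pairs on 46 against 163 counts in all. The log2 fold change of Vldlr was 1.52 (SE 0.538, adjusted p = 0.0661), with the block 1.6 (adjusted p = 0.00423), and DESeq2 gave an adjusted p of 0.0287. It was called in 2 of the 12 fits that left out 1 library, without DMSO 3 (adjusted p = 0.0104) and without EZH2i 6 (adjusted p = 0.0299).

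Of the 6 bZIP factors, Atf4 itself showed no difference that passed the test. Atf4 (chr15:80255184-80257541, plus strand) ran from 161 to 281 CPM in DMSO (median 201) and from 183 to 265 in EZH2i (median 189). The groups overlapped through most of their range, and the highest value of each was its library 6. The log2 fold change of Atf4 was -0.05 (SE 0.129, adjusted p = 0.846), and with the block -0.04 (SE 0.052, adjusted p = 0.564). Under upper-quartile scaling its sign turned, at 0.02.

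Cebpb and Atf3 rose from low levels. Cebpb encodes C/EBP beta, a dimer partner of Atf4. Cebpb (chr2:167688915-167690418, plus strand) ran from 1.26 to 2.44 CPM in DMSO (median 1.40) and from 2.09 to 5.42 in EZH2i (median 2.89). Library 6 was the highest of each group, and without both libraries numbered 6 the DMSO libraries reached 1.69 and the EZH2i libraries began at 2.09, so those groups did not overlap. The log2 fold change of Cebpb was 1.07 (SE 0.247, adjusted p = 0.00816), with EZH2i higher in 6 of 6 pairs. An exon of Tmem189 on the opposite strand covers 312 bases (20.7%) of the Cebpb exons, and since no source used here gives the strand setting of the counting, some reads could come from it. For Tmem189 itself the log2 fold change was -0.07 (adjusted p = 0.672).

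Atf3, a bZIP factor that Atf4 and Ddit3 are known to induce and that represses or activates stress genes, ran from 1.69 to 3.10 CPM in DMSO (median 2.13) and from 2.98 to 5.37 in EZH2i (median 4.12). The 2 ranges met only at their edges. Atf3 (chr1:191170296-191218039, minus strand) rose by a log2 fold change of 0.79 (SE 0.204, adjusted p = 0.0152) on 314 against 656 counts in all, and EZH2i was higher in 6 of 6 pairs. With any 1 library left out the adjusted p lay between 0.0108 and 0.0412 for Atf3 and between 0.00296 and 0.0236 for Cebpb.

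**Figure D3:**
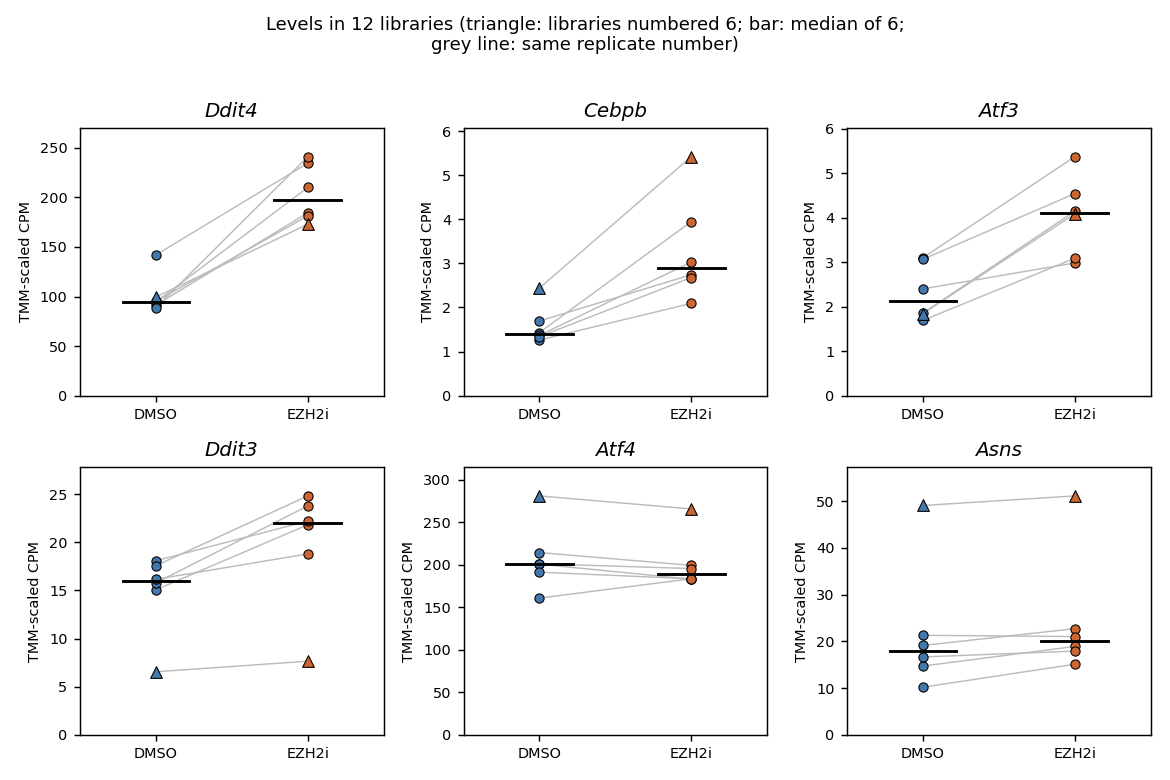
TMM-scaled CPM (vertical axes, from 0) of 6 genes in the 6 DMSO and 6 EZH2i libraries; points are libraries, triangles those numbered 6, bars the medians, and grey lines join equal replicate numbers. Ddit4 is separate between groups, whereas in Ddit3, Atf4 and Asns the libraries numbered 6 lie farther from the other libraries than the groups lie from each other.

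Ddit3 encodes Chop, a factor linked to cell death after prolonged stress. Ddit3 (chr10:127290774-127296288, plus strand) ran from 6.55 to 18.1 CPM in DMSO (median 16.0) and from 7.65 to 24.8 in EZH2i (median 22.0). The lowest value of each group was its library 6; the other 5 DMSO libraries ran from 15.1 to 18.1 and the other 5 EZH2i libraries from 18.8 to 24.8, without overlap. The log2 fold change of Ddit3 was 0.41 (SE 0.275, adjusted p = 0.335). With the block Ddit3 rose, by 0.40 (SE 0.0755, adjusted p = 0.000432), without both libraries numbered 6 by 0.44 (adjusted p = 0.000431), and without EZH2i 6 alone by 0.58 (adjusted p = 0.0339), and EZH2i was higher in 6 of 6 pairs. Leaving out DMSO 6 alone gave 0.26 for Ddit3 (adjusted p = 0.48). Its last exon shares 68 bases with Mars on the opposite strand, 3.97% of its exon bases.

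The remaining factors of the group did not pass the test in either fit. Atf5, which is known to serve the mitochondrial stress response, ran from 3.39 to 5.27 CPM in DMSO (median 4.76) and from 3.69 to 5.55 in EZH2i (median 4.25), for a log2 fold change of -0.03 (SE 0.146, adjusted p = 0.923). Cebpg, another dimer partner of Atf4, ran from 38.1 to 61.3 CPM in DMSO (median 41.4) and from 40.3 to 49.4 in EZH2i (median 42), for a log2 fold change of -0.09 (SE 0.123, adjusted p = 0.666). Both pairs of ranges overlapped fully or nearly so, and EZH2i was higher in 3 of 6 pairs for each of these genes.

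The synthetases attach each amino acid to its tRNA, and several are known Atf4 targets. On the group alone 0 of the 18 cytosolic synthetases were called by edgeR, 0 had an unadjusted p under 0.05, and DESeq2 called none. Their log2 fold changes ran from -0.31 to 0.11 with a median of -0.09, and 14 were negative and 4 positive (Cars, Dars, Vars and Wars). With the block 7 fell, by -0.15 to -0.32, and 0 rose, beside 24.3% of all tested genes called lower and 24.7% higher. The scaling bears on these small values: upper-quartile scaling raised the median over all tested genes from -0.01 to 0.05 and cut the share called lower on the group alone to 2.96%, and with the block under that scaling 4 synthetases fell (Hars, Qars, Rars and Tars) and 2 rose (Cars and Dars), beside 15.1% of tested genes called lower and 30.0% higher (45.1% in all). The synthetases described next were picked after their values were seen.

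Hars, the histidyl enzyme, and Rars, the arginyl enzyme, had the most negative fold changes. Hars ran from 72.2 to 128 CPM in DMSO (median 78.6) and from 56.6 to 113 in EZH2i (median 62.4), with library 6 the highest of each group and EZH2i lower in 6 of 6 pairs. On the log2 scale the fold change was -0.31 (SE 0.187, adjusted p = 0.283), and with the block -0.32 (SE 0.0538, adjusted p = 0.00014). Exons of Hars2 on the opposite strand cover 195 bases (7.97%) of the Hars exons, and some reads could come from them. For Hars2 itself the log2 fold change was 0.01 (adjusted p = 0.972). Rars ran from 78.4 to 189 CPM in DMSO (median 94.2) and from 65.8 to 160 in EZH2i (median 71.2). Its log2 fold change was -0.30 (SE 0.256, adjusted p = 0.47), and with the block -0.31 (SE 0.0499, adjusted p = 0.00011), again lower in 6 of 6 pairs. In both genes library 6 stood farther from the other libraries of its group than the groups stood from each other: Rars in DMSO 6 was 2.05 times the median of the other 5 DMSO libraries. Without EZH2i 6 alone, Hars and Rars fell on the group alone, by -0.50 (adjusted p = 0.0114) and -0.56 (adjusted p = 0.0358). That fit keeps the high library DMSO 6. Without DMSO 6 alone the values were -0.16 (adjusted p = 0.53) and -0.06 (adjusted p = 0.878), and neither gene was called.

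Qars, the glutaminyl enzyme, moved the same way between groups while its libraries numbered 6 were the lowest. It ran from 182 to 284 CPM in DMSO (median 273) and from 161 to 245 in EZH2i (median 239). Outside library 6 the DMSO range was 269 to 284 and the EZH2i range 229 to 245. Those ranges did not overlap, and EZH2i was lower in 6 of 6 pairs, and the log2 fold change was -0.20 (adjusted p = 0.293, blocked 0.00243). Tars, Mars, Nars and Gars, the threonyl, methionyl, asparaginyl and glycyl enzymes, fell with the block by -0.24 (adjusted p = 0.00165), -0.22 (0.00932), -0.17 (0.00705) and -0.15 (0.0232) respectively. Of these, Mars, Nars and Gars did not pass with the block under upper-quartile scaling (adjusted p = 0.0577, 0.0629 and 0.177).

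Other synthetases were level or pointed the other way. Dars, the aspartyl enzyme, ran from 98.0 to 168 CPM in DMSO (median 104) and from 109 to 175 in EZH2i (median 116), and was higher in 6 of 6 pairs. The fold change on the log2 scale was 0.11 (SE 0.151, adjusted p = 0.657), and with the block 0.12 (adjusted p = 0.0653). Wars and Vars, for tryptophan and valine, had log2 fold changes of 0.03 each with SEs of 0.0628 and 0.0734, and EZH2i was higher in 3 of 6 pairs for both. Sars, Kars and Yars had values of -0.06, -0.06 and -0.02, all with adjusted p-values over 0.5, and the sign of all 3 turned under upper-quartile scaling. Aars, Iars, Eprs and Lars lay between -0.10 and -0.09. Without both libraries numbered 6, Eprs fell by -0.14 (adjusted p = 0.042) and Lars by -0.20 (adjusted p = 0.019). Without EZH2i 6 alone Lars fell by -0.33 (adjusted p = 0.0475), and without DMSO 6 alone it was at 0.03 (adjusted p = 0.931). Exons of Exosc6 on the same strand cover 14.3% of the Aars exon bases.

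Of the amino acid enzymes, those of serine synthesis fell with the block and Asns rose. Phgdh, Psat1 and Psph carry out the successive steps of serine synthesis from a glycolytic intermediate. Psat1 ran from 133 to 291 CPM in DMSO (median 161) and from 121 to 259 in EZH2i (median 129). On the log2 scale the fold change was -0.26 (SE 0.225, adjusted p = 0.47), and with the block it fell by -0.27 (SE 0.0557, adjusted p = 0.000864), lower in 6 of 6 pairs. Phgdh ran from 182 to 332 CPM in DMSO (median 210) and from 131 to 350 in EZH2i (median 157). EZH2i was lower in 4 of 6 pairs for Phgdh and higher in the other 2, pair 6 among them. Its log2 fold change was -0.24 (SE 0.231, adjusted p = 0.52), and with the block -0.30 (SE 0.0762, adjusted p = 0.00457).

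Psph had the most even levels of the 3 serine enzymes. It ran from 30.1 to 37.7 CPM in DMSO (median 33.4) and from 25.2 to 35.1 in EZH2i (median 27.3), and outside library 6 the EZH2i libraries reached 28.1, below every DMSO library. The fold change on the log2 scale was -0.26 (SE 0.0909, adjusted p = 0.0662), with the block -0.26 (adjusted p = 0.00243), and DESeq2 called it lower (adjusted p = 0.038). Without EZH2i 6 alone Psph fell by -0.33 (adjusted p = 0.00446), Psat1 by -0.49 (adjusted p = 0.0335) and Phgdh by -0.52 (adjusted p = 0.0147). Without DMSO 6 alone the values were -0.22 (adjusted p = 0.104), -0.07 (adjusted p = 0.841) and -0.10 (adjusted p = 0.813) in the same order, and none was called. A Cct6a transcript on the opposite strand covers 10.4% of the Psph exon bases, and the log2 fold change of Cct6a was -0.36 (adjusted p = 0.481).

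Asns, which makes asparagine from aspartate and is a classical Atf4 target, was the member that followed library 6 most. Asns (chr6:7675169-7693254, minus strand) ran from 10.2 to 49.1 CPM in DMSO (median 17.9) and from 15.1 to 51.1 in EZH2i (median 20). DMSO 6 was 2.94 times the median of the other DMSO libraries and EZH2i 6 was 2.70 times that of the other EZH2i libraries. The log2 fold change of Asns was 0.17 (SE 0.377, adjusted p = 0.795). With the block it rose by 0.21 (SE 0.078, adjusted p = 0.0345), in 5 of 6 pairs, and leaving out EZH2i 6 alone gave -0.18, leaving out DMSO 6 alone 0.58.

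Pycr1 and Aldh18a1 act in proline synthesis. Pycr1 ran from 0.444 to 2.02 CPM in DMSO (median 0.837) and from 1.16 to 1.68 in EZH2i (median 1.40), on 130 against 228 counts in all. On the log2 scale the fold change was 0.47 (SE 0.302, adjusted p = 0.317), with the block 0.52 (adjusted p = 0.108), and without both libraries numbered 6 it rose by 0.73 (adjusted p = 0.0298). Aldh18a1 was level, with DMSO and EZH2i medians of 76.7 and 77.8 CPM and a log2 fold change of 0.02 (SE 0.218, adjusted p = 0.97).

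Shmt2 and Mthfd2 pass the carbon of serine into mitochondrial folate. Shmt2 ran from 112 to 407 CPM in DMSO (median 171) and from 133 to 362 in EZH2i (median 149), with both highest values in library 6 and a log2 fold change of -0.14 (SE 0.321, adjusted p = 0.797). Mthfd2 ran from 102 to 137 CPM in DMSO (median 108) and from 85.5 to 146 in EZH2i (median 94.9). Its log2 fold change was -0.12 (SE 0.126, adjusted p = 0.58), with the block -0.13 (adjusted p = 0.0646), and without both libraries numbered 6 it fell by -0.17 (adjusted p = 0.0226), and without EZH2i 6 alone by -0.25 (adjusted p = 0.0381). Leaving out DMSO 6 alone gave -0.05 for Mthfd2 (adjusted p = 0.818).

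Levels of different genes were compared as CPM per kilobase of the longest protein-coding transcript in GENCODE M21. In DMSO the median per-kilobase level was highest for Kars (117), Atf4 (116), Phgdh (111) and Gars (109), and among the synthetases it was lowest for Cars (16.7). Ddit4 rose on this scale from 54.0 to 112, next to the levels of Atf4 (110) and Kars (110) in EZH2i. Ddit3 stood at 17.9 in DMSO and 24.7 in EZH2i, Trib3 at 15.7 and 17.6, and Asns at 8.88 and 9.91. The lowest were Atf3 (1.07 in DMSO), Cebpb (0.931), Chac1 (0.489), Pycr1 (0.287) and Vldlr (0.0301). The genes that rose were therefore 1 abundant member and 2 scarce ones.

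Genes around the pathway were read from lists of known roles, in which 25 genes were called, 14 of them in all 12 fits that left out 1 library and 11 not in at least 1 of them. The lists share some genes (Mthfd1l, Gpt2, Pck2, Cth, Aldh1l2, Dnajc3, Slc3a2 and Slc7a11), so their counts are not independent. Over all tested genes 13.3% were called higher and 6.05% lower, and with the block 24.7% and 24.3%, for comparison with each list. Of 11 tested kinases, phosphatases and adaptors of eIF2 alpha, 2 rose and 2 fell. Eif2ak3, which encodes Perk, the kinase of the endoplasmic reticulum, had medians of 83.5 and 125 CPM in DMSO and EZH2i and rose by 0.55 (SE 0.11, adjusted p = 0.00343). Eif2ak4, which encodes Gcn2, the kinase that senses uncharged tRNA, rose by 0.25 (SE 0.0767, adjusted p = 0.0371). The catalytic phosphatase subunits Ppp1ca and Ppp1cb fell by -0.39 (adjusted p = 0.00118) and -0.25 (adjusted p = 0.0226), and Ppp1cb did not pass under upper-quartile scaling (adjusted p = 0.0716). The median of the list was -0.08. Of 8 subunits of eIF2 and of its exchange factor eIF2B, 0 rose and 2 fell, Eif2b2 by -0.33 (adjusted p = 0.0223) and Eif2b4 by -0.23 (adjusted p = 0.0334), with a list median of -0.24, and under upper-quartile scaling neither passed (adjusted p = 0.0705 and 0.101). Eif2ak4 was not called in 7 of the 12 fits without 1 library and Eif2b4 in 9 (highest adjusted p = 0.0991 and 0.079), Ppp1cb without EZH2i 3, 4 or 5 (highest 0.0594) and Eif2b2 without EZH2i 5 (0.0524). With the block the first list had 2 higher and 5 lower and the second 0 higher and 6 lower.

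Other genes known as Atf4 targets included 4 that rose and 0 that fell among 17 tested of 23 listed, with a median of 0.33. Over all tested genes 13.3% were called higher and 6.05% lower, with a median of -0.01. Nupr1, a small stress-induced chromatin protein, rose by 1.6 (adjusted p = 0.00244) from a median of 0.24 to 0.692 CPM, on 33 against 125 counts in all. Jdp2, a bZIP repressor, rose by 1.41 (adjusted p = 0.000135) from 6.66 to 18.4 CPM. Gadd45a, a growth arrest gene, rose by 0.63 (adjusted p = 0.0435). Sesn2, an inhibitor of mTORC1 that binds leucine, rose by 0.57 (adjusted p = 0.0295), and by 0.38 without EZH2i 6, a library at 30.0 CPM against a group median of 16.9. Sesn2 was not called without DMSO 1, 2 or 5 (highest adjusted p = 0.0734), nor Gadd45a in 8 of the 12 fits without 1 library (highest 0.0924). All 4 were higher in 6 of 6 pairs, and with the block 9 of the 17 were higher and 2 lower, beside 24.7% and 24.3% of all tested genes.

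Amino acid transporters had 5 that rose and 1 that fell among 15 tested of 16 listed (over all tested genes 13.3% and 6.05%), with a median of 0.03. Slc7a3, a carrier of cationic amino acids, rose by 1.41 (adjusted p = 0.00404), the glycine carrier Slc6a9 by 1.3 (adjusted p = 0.0076), the neutral amino acid carrier Slc43a1 by 1.2 (adjusted p = 0.0211) and Slc1a4, which carries alanine, serine and cysteine, by 0.90 (adjusted p = 0.0161). Slc43a1 was the most abundant of these, with medians of 37.1 and 89.9 CPM, and its library 6 was at 14.5 CPM in DMSO and 21.5 in EZH2i. Slc7a3 was scarce, with medians of 0.585 and 1.97 CPM on 96 against 313 counts in all. Slc6a9 had medians of 0.975 and 2.47 CPM on 140 against 433 counts. The other 2 calls were Slc36a1, which rose by 0.38 (adjusted p = 0.036), and Slc38a1, a glutamine carrier, which fell by -0.33 (adjusted p = 0.0124). Slc36a1 was not called in 8 of the 12 fits without 1 library (highest adjusted p = 0.0877), nor Slc38a1 without EZH2i 4 (adjusted p = 0.0507). With the block 6 were higher and 3 lower, beside 24.7% and 24.3% of all tested genes. Slc38a9 was added to those higher (adjusted p = 0.000109), and Slc7a1 (0.000358) and Slc1a5 (0.0139) to those lower.

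The mitochondrial synthetases gave 0 that rose and 2 that fell among 17 (over all tested genes 13.3% and 6.05%), with a median of -0.06. Iars2 fell by -0.43 (adjusted p = 0.00483), and Sars2 fell by -0.21 (adjusted p = 0.0357) but did not pass under upper-quartile scaling (adjusted p = 0.138) or in 8 of the 12 fits without 1 library (highest 0.0881). With the block 0 were higher and 3 lower, the third being Cars2 (adjusted p = 0.00782), beside 24.7% and 24.3% of all tested genes. Of 5 further genes of the cytosolic synthetase complexes 0 were called, with a median of -0.28. Farsb, which encodes a subunit of the phenylalanyl enzyme and had the smallest p of the 5, was at -0.28 on the log2 scale (adjusted p = 0.465) and with the block fell by -0.30 (adjusted p = 0.00061), 1 of 4 of these genes that fell in the blocked fit.

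Endoplasmic reticulum chaperones and genes of the unfolded protein response had 2 that rose and 1 that fell among 23 (over all tested genes 13.3% and 6.05%), with a median of -0.09. The stress sensors Ern1, which encodes Ire1 alpha, and Atf6 rose by 1.32 (adjusted p = 1.31e-05) and 0.40 (adjusted p = 0.00378), Ern1 from a median of 4.35 to 11 CPM. Dnajb9, a chaperone cofactor that restrains Ire1, fell by -0.54 (adjusted p = 0.000969). With the block 3 of the 23 were higher and 8 lower, beside 24.7% and 24.3% of all tested genes. Ero1lb was added as higher, and Calr, Canx, Pdia3, Pdia4, Dnajb11, Dnajc3 and Hyou1, chaperones and folding enzymes, as lower, by -0.13 to -0.26. Of 9 mitochondrial stress genes 0 rose and 1 fell, the protease gene Yme1l1, by -0.23 (adjusted p = 0.0313, and 0.0945 under upper-quartile scaling), not called without EZH2i 3, 4 or 5 (highest 0.0879); with the block 0 were higher and 6 lower, Hspa9 with the smallest p (-0.42, adjusted p = 3.67e-05). Of 23 tested enzymes of amino acid and one-carbon metabolism outside the 36 genes, 2 rose and 1 fell, with a median of 0.00. Gldc, the glycine cleavage enzyme, rose by 3.22 (adjusted p = 0.00914) with EZH2i 6 at 19.5 CPM against a group median of 2.87, and by 2.27 without that library. Prodh, the first enzyme of proline breakdown, rose by 1.24 (adjusted p = 0.0016), and Glud1, glutamate dehydrogenase, fell by -0.22 (adjusted p = 0.0483, and 0.187 under upper-quartile scaling) and was not called in 8 of the 12 fits without 1 library (highest 0.108). With the block 5 of these 23 enzymes were higher and 6 lower. Gpt2 and Pck2 among those higher and Mthfd1l among those lower were also counted with the other Atf4 targets.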

How the data were processed

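Per the labels, stranded TruSeq mRNA libraries were read single-end on a NextSeq. Each deposited file is a table of unnormalized read counts by gene. The submitters' processing notes name featureCounts, TopHat2 2.1.1, Trimmomatic 0.38, FastQC 0.11.7 and SAMtools 1.9 and the build GRCm38. Annotation, strand setting and handling of multi-mapped reads: not given in the sources used here. Totals were 17215483 to 31206228 counts. In R 4.3.3, edgeR 4.0.16 (limma 3.58.1) kept genes with filterByExpr, scaled libraries by TMM and ran its two-sided quasi-likelihood test on the group alone; adjusted p-values are Benjamini-Hochberg over all 11727 tested genes, called under 0.05. The SE is the log2 fold change (EZH2i over DMSO) over the square root of F. Alternatives were DESeq2 1.42.0, other scalings, no filter, left-out libraries and the replicate block. The block with upper-quartile scaling was added after seeing the data.

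The labels give replicates 1 to 6 in each group. Same-numbered libraries correlated by 0.213, 0.445, 0.286, 0.527, 0.317 and 0.847 in their deviations from the group means, all over 0.1, so the numbers were taken as pairs. Those group means include number 6. Without number 6 the correlations were 0.223, 0.181, 0.165, 0.341 and 0.0371, so number 5 was under 0.1. Libraries numbered 2, 4 and 6 correlated best with their own number, and those numbered 1, 3 and 5 did not. Whether the numbers mark true pairs was not tested. Tested on simulated data with 11727 genes, the fit for EZH2i against DMSO recovered 23 of 67 genes changed 1.5-fold, 54 of 67 changed 2-fold and 60 of 66 changed 4-fold, with 11 false calls. The members and lists were chosen with earlier results of these data known. Values are given in full for called members, for those that the block changes by size, and for a fixed set (Atf4, Atf5, Atf3, Ddit3, Trib3, Chac1, Ddit4, Asns, Psat1, Phgdh, Mthfd2, Vldlr). In each related list up to 4 called genes by size are named, or the one with the smallest p, and in some lists further calls are named as well. Gene positions are from GENCODE M21 (GRCm38), sequences from RefSeq (GRCm38.p6). Some items are not reported here.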

Additional observations from a re-analysis of the deposited data

Results flagged for a closer look

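In 45 of the 72 groups of 6 libraries (36 genes in 2 groups) 1 library lay beyond the limit of Dixon's gap test, which chance passes in about 1 in 20 groups. These 45 fell on 25 genes and, with 1 exception, on the libraries numbered 6. The 72 groups are therefore not independent, and the rate of 1 in 20 is no measure of an excess. Library 6 was also an end of both groups for many other tested genes (shares given above). The share of all tested genes beyond the same limit was not tested, so the 45 cannot be read as particular to the 36 genes.

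Among the synthetases, DMSO 6 and EZH2i 6 were the high ends of their groups at 168 and 175 CPM for Dars, 286 and 293 for Eprs, 373 and 357 for Gars, 128 and 113 for Hars, 231 and 224 for Iars, 316 and 303 for Kars, 108 and 126 for Lars, 146 and 136 for Mars, 265 and 237 for Nars, 189 and 160 for Rars, 165 and 144 for Tars and 95.5 and 109 for Yars. Aars was high in DMSO 6 alone, at 178 CPM. Qars was low in both, at 182 and 161 CPM.

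Among the other genes, the same libraries were high at 49.1 and 51.1 CPM for Asns, 291 and 259 for Psat1, 332 and 350 for Phgdh, 407 and 362 for Shmt2, 137 and 146 for Mthfd2 and 145 and 149 for Aldh18a1. Ddit3 was low in both, at 6.55 and 7.65 CPM. Only 1 of the pair was beyond the limit for Atf4 (265 CPM in EZH2i 6), Psph (35.1 in EZH2i 6) and Cebpb (2.44 in DMSO 6). The exception was Ddit4, for which DMSO 4 was the high end of its group at 142 CPM. What sets these libraries apart was not tested.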

How the results depend on the processing

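The rise of Ddit4, Cebpb and Atf3 passed the test in every alternative run, all 12 fits without 1 library included. The replicate block moved the calls over all tested genes from 2266 (1557 higher, 709 lower) to 5741 (2892, 2849), and over the 36 genes from 3 higher and 0 lower to 6 and 10. With both libraries numbered 6 left out there were 5270 (2815, 2455), with 6 and 13; with that and the block 5907 (3064, 2843), with 8 and 13; with the block and upper-quartile scaling 5292 (3518, 1774), with 9 and 7. Upper-quartile scaling alone gave 347 lower calls, and the share of calls that were higher went from 68.7% to 83.8%; DESeq2 gave 3249 calls with 1118 lower, and 4 of the 36 higher and 1 lower. Leaving out 1 library gave 1732 to 4079 calls, 1297 to 2262 higher and 435 to 1817 lower, with 3 to 5 of the 36 higher and 0 to 7 lower; the highest counts came without EZH2i 6, and without EZH2i 3, 4 or 5 there were 435, 439 and 448 lower calls.

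The log2 fold changes that changed sign belonged to genes not called on the group alone, and no value of the changed sign was called (smallest adjusted p = 0.377, Aldh18a1 without EZH2i 6). With upper-quartile scaling, without and with the block, they were Kars (0.0060 and 0.0057), Sars (0.0046 and 0.0064), Yars (0.046 and 0.013), Atf4 (0.018 and 0.023) and Atf5 (0.034 and 0.035). With DESeq2 they were Chac1 (-0.0095) and Aldh18a1 (-0.0011), and Vars was at -0.0030 without both libraries numbered 6 and at -0.00037 with the block as well. Leaving out 1 library gave ranges that cross 0 of -0.19 to 0.21 (Aldh18a1), -0.18 to 0.58 (Asns), -0.14 to 0.056 (Atf4), -0.10 to 0.017 (Atf5), -0.15 to 0.0051 (Cebpg), -0.17 to 0.21 (Chac1), -0.010 to 0.25 (Dars), -0.36 to 0.13 (Eprs and Iars), -0.12 to 0.0042 (Kars), -0.33 to 0.033 (Lars), -0.45 to 0.0045 (Mars), -0.36 to 0.0053 (Nars), -0.46 to 0.18 (Shmt2), -0.48 to 0.00023 (Tars), -0.0038 to 0.073 (Vars), -0.0014 to 0.058 (Wars) and -0.27 to 0.15 (Yars). The cause was not tested.

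RLE scaling and no filter on low counts changed no call of the 36 genes. Depth limits Chac1, Vldlr, Pycr1, Cebpb and Atf3, and among the related genes Nupr1, Slc7a3 and Slc6a9. Changes of 1.5-fold were often missed in simulated data.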
